A study of Mus musculus with 2 samples.

Results

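The genes described are the classical cadherins and the non-clustered protocadherins of the mouse, defined by a rule on their names. The family was proposed with earlier results of these data known. They are the protein-coding genes whose symbol is Cdh or Pcdh followed only by a number, with an optional x, leaving out the vascular cadherin Cdh5. The rule gave 34 genes, 22 cadherins and 12 protocadherins, out of 22015 annotated nuclear protein-coding genes and 55536 annotated genes in all. Their RNA was measured by total RNA sequencing of the left cerebral cortex of female B6CASTF1/J mice, hybrids of the C57BL/6 and CAST strains, at the age of 25 days. There were 2 libraries in 1 group, called replicate 1 and replicate 2, each made from 300 ng of RNA with synthetic ERCC spike-in RNAs added. The labels call them biological replicates 1 and 2 and give each library its own animal number but the same donor identifier. Whether the spread between them is that of animals or of preparation only is therefore not known. No treatment, mutant or second condition was sampled, so the comparisons are between genes within a library and between the 2 libraries, and no p-value can be given.

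Cadherins are calcium-dependent adhesion proteins whose extracellular repeats pair with those of a neighbouring cell. Classical cadherins, of type I and type II, exchange an N-terminal strand with their partner and hold β-catenin with their cytoplasmic tail, which links them through α-catenin to actin. Non-clustered protocadherins, of the δ1 and δ2 groups, have other cytoplasmic motifs, among them a site for protein phosphatase 1 in the δ1 group and a site for the WAVE actin regulators in several δ2 members. In the cerebral cortex both families are known for sorting neurons into layers and areas, for guiding axons and for building synapses.

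Expected counts over annotated genes summed to 31191506 in replicate 1 and 27079663 in replicate 2. The libraries differed by more than the sampling of reads, since the chi-square over 20417 genes was 7.84 times its degrees of freedom, and they were kept as 2 samples. Every excitatory neuron, inhibitory neuron, astrocyte, oligodendrocyte, oligodendrocyte precursor, microglia and endothelial marker was detected. Of mural markers 4 of 5 were detected, and of meningeal markers 5 of 6. The striatal neuron list and the choroid plexus and ependyma list are not named for cells of the cortex. All 7 striatal neuron markers and 3 of 5 choroid plexus and ependyma markers were detected as well. Where this RNA came from was not tested. The libraries were not alike in every marker list. In TPM, a measure of transcript abundance that is corrected for length and sums to a fixed total, the 7 oligodendrocyte markers came to 1503 in replicate 1 and 2367 in replicate 2, all higher in replicate 2. The 7 striatal neuron markers summed to 451 TPM in replicate 1 and 310 TPM in replicate 2, all higher in replicate 1. The choroid plexus and ependyma list, led by the choroid plexus gene Ttr, summed to 102 TPM in replicate 1 and 9.24 TPM in replicate 2.

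Detection required 1 TPM or more in each library. By that rule 28 of the 34 genes were detected, 17 cadherins and 11 protocadherins, where 58.7% of all nuclear protein-coding genes were. Transcripts of the family came mostly from protocadherins: the 4 genes Pcdh1, Pcdh9, Pcdh10 and Pcdh7 held 48.1% of the summed TPM of the 34 genes in replicate 1 and 50.1% in replicate 2. Cdh2 and Cdh13 followed in the fifth and the sixth place, and the order of these 6 genes in the gene table was the same in both libraries. Detected members had a median of 16.2 TPM, beside 16.0 TPM over all detected nuclear protein-coding genes, and 16 of the 28 lay above that median. In bulk tissue, fewer cells of a type and less RNA per cell cannot be told apart, so these are levels of the tissue. The family spread over the whole range, from the 94.3th percentile of detected protein-coding genes for Pcdh1 to the 0.85th for Cdh23.

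**Figure D1:**
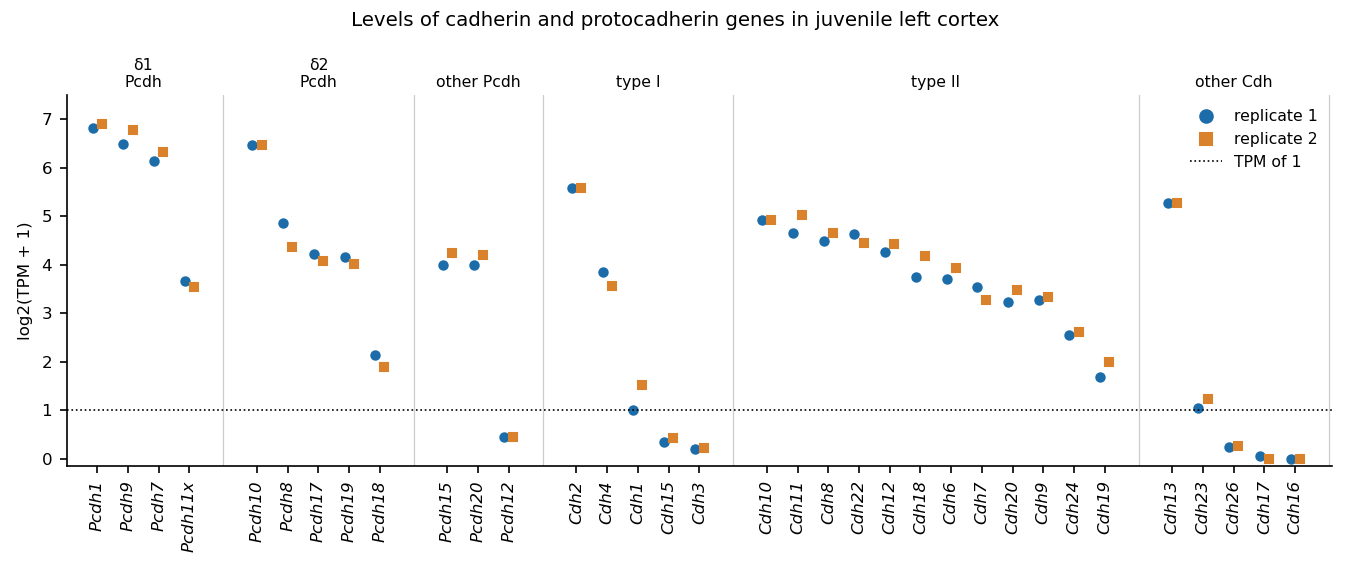
Level of each of the 34 genes as log2(TPM + 1), by class, with replicate 1 as circles and replicate 2 as squares; the dotted line marks a TPM of 1. All 12 type II cadherins and all 9 δ protocadherins lie above the line, and 6 genes of the other classes lie below it.

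By class, the 4 δ1 protocadherins had the highest levels, with a median of 6.43 ± 0.17 on the log2(TPM + 1) scale (mean ± SD over the 2 libraries). The 5 δ2 protocadherins had 4.16 ± 0.10, the 3 other protocadherins 4.09 ± 0.15 and the 12 type II cadherins 3.89 ± 0.23. Type I cadherins had 1.27 ± 0.37 over 5 genes and the other cadherins 0.25 ± 0.02 over 5 genes. The same median over all nuclear protein-coding genes was 2.25. δ2, other protocadherin and type II medians were closer to each other than those of δ1 and type I, and the δ2 median was above that of the other protocadherins in replicate 1 and below it in replicate 2. δ1 genes held 39.1% of the summed TPM of the family on average, type II genes 24.2%, δ2 genes 19.3%, type I genes 8.00%, other cadherins 5.12% and other protocadherins 4.29%.

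Pcdh1, a δ1 protocadherin known in human airway epithelium, was the most abundant member in the gene table, with 112 TPM in replicate 1 and 119 TPM in replicate 2. By FASTQ-based TPM, from the transcript table made directly from the reads, Pcdh10 led in replicate 1 with 169 and Pcdh9 led in replicate 2 with 188, against 164 in replicate 1 and 165 in replicate 2 for Pcdh1. Pcdh9 had 89.1 TPM in replicate 1 and 109 TPM in replicate 2, and Pcdh7 had 69.1 TPM in replicate 1 and 78.9 TPM in replicate 2. Pcdh1, Pcdh9 and Pcdh7 were each higher in replicate 2 in the gene table's TPM. Pcdh11x, encoded on the X chromosome, was lower with 11.6 TPM in replicate 1 and 10.7 TPM in replicate 2. The range within the class was thus from the first to the 20th place among the 34 genes.

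All 4 δ1 genes, and no other member, encode the phosphatase 1 site of this group. It was searched in the translated GENCODE M21 coding sequences as arginine, arginine, valine, threonine and phenylalanine in a row, which occurs in 10 of 21853 protein-coding genes, or 0.0458%. The coding bases around it are shown for 3 genes because they reach the same 5 residues with different codons and at an exon boundary. Capitals mark those 5 codons, the bases read 5′ to 3′ on the coding strand, and each window of 33 bases runs across an exon boundary on mm10.
Pcdh9-204: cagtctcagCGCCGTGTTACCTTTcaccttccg
Pcdh7-203: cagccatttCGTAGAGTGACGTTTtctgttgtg
Pcdh11x-203: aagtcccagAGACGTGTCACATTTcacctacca
In Pcdh9-204 the window lies on the minus strand of chr14:93326851-93885699, from exon 2 into exon 3. In Pcdh7-203 it lies on the plus strand of chr5:57722276-57913185, from exon 1 into exon 2. In Pcdh11x-203 it lies on the plus strand of chrX:120637622-120726530, from exon 5 into exon 6. A transcript that stops before the second of these exons leaves the site out.

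How much of each δ1 gene's RNA carried the site differed between the genes. In Pcdh7, transcripts with the site held 92.9% of the TPM in replicate 1 and 93.6% in replicate 2. In Pcdh11x they held 89.6% in replicate 1 and 88.9% in replicate 2, and in Pcdh1 73.6% in replicate 1 and 78.4% in replicate 2. In Pcdh9 they held only 39.4% in replicate 1 and 35.6% in replicate 2. The gap between Pcdh9 and the other 3 genes was larger than the spread between the libraries. It was also seen in the FASTQ-based table, where Pcdh9 had 37.6% in replicate 1 and 29.9% in replicate 2 and the other 3 genes had at least 74.7%. As a share of expected counts, which are not divided by length, Pcdh9 had 64.0% in replicate 1 and 60.1% in replicate 2, and the gap was smaller. By that measure Pcdh1 had 78.6% in replicate 1 and 82.2% in replicate 2. Pcdh11x had 93.6% in replicate 1 and 93.4% in replicate 2, and Pcdh7 had 94.1% in replicate 1 and 93.9% in replicate 2.

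Pcdh9 RNA was divided over several transcripts. Its leading transcript in the alignment-based table was Pcdh9-204, which encodes 1203 codons with the site, at 34.1% of the TPM in replicate 1 and 30.2% in replicate 2. Pcdh9-205 held 22.7% in replicate 1 and 25.3% in replicate 2. Its 873 annotated codons are shared with Pcdh9-204 and stop soon after the membrane span, where the annotation marks the coding end as incomplete. It was counted as without the site, although its full coding end is not known. Pcdh9-202, with 1038 codons, held 10.7% in each library. Pcdh9-203, a 656-base retained-intron transcript with no coding sequence, held 26.0% in replicate 1 and 27.1% in replicate 2. In the FASTQ-based table Pcdh9-203 led instead, with 32.8% in replicate 1 and 37.1% in replicate 2. Its expected counts were 269 in replicate 1 and 288 in replicate 2, against 3807 in replicate 1 and 3471 in replicate 2 for Pcdh9-204. TPM divides counts by length, which raises the share of a short transcript.

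In Pcdh1 the site also appeared where no membrane span was found. Pcdh1-204, with 1077 annotated codons and an incomplete coding start, led with 37.0% of the TPM in replicate 1 and 41.3% in replicate 2. Close behind it was Pcdh1-203, with 36.6% in replicate 1 and 37.1% in replicate 2, which encodes 360 codons with the phosphatase site. No stretch of 19 residues with a mean Kyte-Doolittle hydropathy of at least 1.6, the usual mark of a membrane span, was found in it. The first 60 codons of each frame were not searched. Pcdh1-202, which has the span but not the site, held 20.1% in replicate 1 and 17.8% in replicate 2. Pcdh7-203 led its gene with 55.4% in replicate 1 and 54.1% in replicate 2, and encodes both the span and the site.

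Pcdh10, the most abundant δ2 protocadherin, is known in mouse for axon growth and for synapse elimination. It had 87.65 TPM in replicate 1 and 87.35 TPM in replicate 2, the smallest difference among the 4 most abundant genes in the gene table's TPM. By FASTQ-based TPM it had 169 in replicate 1 and 161 in replicate 2. Pcdh1 differed less by that measure, with 164 in replicate 1 and 165 in replicate 2. Pcdh8, also known as arcadlin, is an activity-regulated synaptic protein of rat neurons that binds N-cadherin, and had 28.1 TPM in replicate 1 and 19.5 TPM in replicate 2. Pcdh17, known for presynaptic assembly in mouse, had 17.7 TPM in replicate 1 and 16.0 TPM in replicate 2. Pcdh19, X-linked and the gene of a human epilepsy of females, had 16.9 TPM in replicate 1 and 15.3 TPM in replicate 2. The lowest of the group was Pcdh18, with 3.38 TPM in replicate 1 and 2.70 TPM in replicate 2. All 5 were thus at or above replicate 2's level in replicate 1, with Pcdh8 the farthest apart.

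The tail of Pcdh10 was variable too. Its 4 coding transcripts share the first 877 codons, which include the membrane span, and then differ in length. Pcdh10-202, with 1040 codons, led with 34.0% of the TPM in replicate 1 and 31.5% in replicate 2. Pcdh10-204 was near it with 28.9% in replicate 1 and 30.9% in replicate 2, and encodes 896 codons, 19 of them its own. In replicate 2 the 2 transcripts were closer to each other than Pcdh10-202 was to itself between the libraries. The FASTQ-based table put the 634-base noncoding Pcdh10-205 first, with 45.8% in replicate 1 and 43.7% in replicate 2, against 21.2% in replicate 1 and 19.9% in replicate 2 in the alignment-based table. Pcdh8-201, with 1070 codons, led Pcdh8 with 50.2% of the TPM in replicate 1 and 71.3% in replicate 2. The 576-base noncoding Pcdh8-202 had 44.7 expected counts in replicate 1 and none in replicate 2, and the FASTQ-based table gave it 0 counts in both libraries. Counting protein-coding transcripts only, Pcdh8 had 23.1 TPM in replicate 1 and 19.2 TPM in replicate 2.

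Of the 3 other protocadherins, Pcdh20 had 14.99 TPM in replicate 1 and 17.3 TPM in replicate 2. Its transcripts Pcdh20-201 and Pcdh20-202 encode the same 952 codons, and the lead depended on the table. Pcdh20-201 led the alignment-based one with 65.3% in replicate 1 and 63.9% in replicate 2, and Pcdh20-202 led the FASTQ-based one with 52.1% in replicate 1 and 50.9% in replicate 2. Pcdh15, which with Cdh23 forms the tip link of inner ear hair cells, had 14.9 TPM in replicate 1 and 17.8 TPM in replicate 2. Among its 41 annotated transcripts, the protein-coding ones held 42.7% of the TPM in replicate 1 and 43.0% in replicate 2. By expected counts, which are not divided by length, they held 71.2% in replicate 1 and 68.5% in replicate 2. In the alignment-based table, Pcdh15 was the 1 detected gene whose leading transcript differed between the libraries. The retained-intron transcript Pcdh15-230 led in replicate 1 with 20.1% and had 13.6% in replicate 2. Pcdh15-206, also with a retained intron, had 18.0% in replicate 1 and led in replicate 2 with 24.0%. The FASTQ-based table did not show this change, and Pcdh15-206 led it with 21.1% in replicate 1 and 23.2% in replicate 2. Pcdh15-234, of 1677 codons, had 41.4% of the gene's expected counts in replicate 1 and 40.9% in replicate 2. Pcdh12, a protocadherin of vascular endothelium, was not detected, with 0.37 TPM in each library.

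Type I cadherins were few but held the most abundant cadherin. Cdh2, or N-cadherin, the main classical cadherin of neural tissue and of synapses, had 47.3 TPM in replicate 1 and 46.8 TPM in replicate 2. Cdh4, or R-cadherin, had 13.4 TPM in replicate 1 and 10.9 TPM in replicate 2. Cdh1, the E-cadherin of epithelia, lay near the threshold with 1.01 TPM in replicate 1 and 1.88 TPM in replicate 2. Its expected counts were 91 in replicate 1 and 97 in replicate 2, so the wider gap in TPM came with the 789-base Cdh1-202, which had no TPM in replicate 1 and 0.68 TPM in replicate 2. Cdh15, the muscle M-cadherin, and Cdh3, the placental P-cadherin, were not detected, at 0.15 to 0.34 TPM. Between Cdh2 and Cdh1, 2 genes of the same subclass, the level thus differed more than across the whole of type II.

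Cdh2-201 led Cdh2 with 51.0% of the TPM in replicate 1 and 55.6% in replicate 2, and encodes 906 codons. Cdh2-202, of 849 codons, held 42.6% in replicate 1 and 35.0% in replicate 2, and both carry the membrane span and the catenin site. Cdh4-201 led Cdh4 with 79.2% in replicate 1 and 74.4% in replicate 2.

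Every type II cadherin was detected. Cdh10, known for its part in mouse synapse formation, had 29.22 TPM in replicate 1 and 29.25 TPM in replicate 2. Cdh11, first known from bone, had 24.3 TPM in replicate 1 and 31.5 TPM in replicate 2, and Cdh22, found in pituitary and brain, had 23.9 TPM in replicate 1 and 20.8 TPM in replicate 2. Cdh8, which marks cortical areas and layers of the developing mouse brain, had 21.4 TPM in replicate 1 and 24.2 TPM in replicate 2. These 4 genes were close to each other: Cdh10 was above Cdh11 in replicate 1 and below it in replicate 2, and Cdh22 was above Cdh8 in replicate 1 and below it in replicate 2. Cdh12 had 18.2 TPM in replicate 1 and 20.5 TPM in replicate 2, and Cdh18 had 12.5 TPM in replicate 1 and 17.2 TPM in replicate 2. Cdh6, a kidney and neural cadherin, had 12.1 TPM in replicate 1 and 14.2 TPM in replicate 2. The next 3 genes had no fixed order between the libraries. Cdh7 had 10.6 TPM in replicate 1 and 8.64 TPM in replicate 2, Cdh20 had 8.41 TPM in replicate 1 and 10.1 TPM in replicate 2, and Cdh9, a synaptic cadherin of mouse hippocampus, had 8.71 TPM in replicate 1 and 9.12 TPM in replicate 2. At the low end stood Cdh24, with 4.82 TPM in replicate 1 and 5.13 TPM in replicate 2, and Cdh19, a cadherin of glia of the peripheral nerve, with 2.19 TPM in replicate 1 and 2.96 TPM in replicate 2.

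What sets type II apart from type I can be read in the first codons of the mature protein, after the site where the prodomain is cut off. The cut was searched as arginine, any residue, lysine or arginine, and arginine, followed by a tryptophan at the second residue, which was found in 5 of 5 type I genes, 12 of 12 type II genes and Cdh26. A tryptophan at the fourth residue as well was found in 12 of 12 type II genes, in 0 of 5 type I genes and, outside the family, in Cdh5 alone among 21853 protein-coding genes. These tryptophans are the ones that dock into the partner cadherin. The first 10 codons are shown for 3 type I and 5 type II genes, 5′ to 3′ on the coding strand, with the tryptophan codons in capitals.
Cdh4-201: gacTGGgtcatcccacccatcaacgttccc
Cdh1-201: gacTGGgtcatccctcccatcagctgcccc
Cdh15-201: gccTGGgtcatcccacccattagtgtgtct
Cdh10-202: ggcTGGatgTGGaatcagtttttcttgctg
Cdh11-201: ggcTGGgtcTGGaaccaattctttgtgata
Cdh22-201: ggtTGGgtgTGGaaccagttcttcgtggtg
Cdh8-203: ggcTGGgttTGGaatcaaatgtttgtcctg
Cdh12-203: ggcTGGgtaTGGaatcagttttttgtgctg
On mm10 these windows are exonic and lie at chr2:179797560-179797589 (plus strand, exon 4) in Cdh4 and chr8:106653582-106653611 (plus, exon 4) in Cdh1. In Cdh15 the window is at chr8:122856592-122856621 (plus, exon 2), and in Cdh10 at chr15:18899751-18899780 (plus, exon 2). In Cdh11 it is at chr8:102679651-102679680 (minus, exon 3), and in Cdh22 at chr2:165180943-165180972 (minus, exon 2). In Cdh8 it is at chr8:99400765-99400794 (minus, exon 2), and in Cdh12 at chr15:21237843-21237872 (plus, exon 3). The histidine, alanine and valine in a row of the first repeat, known from type I cadherins, was found in 4 of 5 type I genes, not in Cdh15, and in 0 of 12 type II genes. Type II genes, with both tryptophans, held 24.2% of the family's TPM, and type I genes held 8.00%.

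The β-catenin site of the tail was searched as leucine, 2 residues, tryptophan or leucine, glycine, 2 residues, phenylalanine, 2 residues, leucine, alanine or glycine, 1 residue, leucine or methionine, and tyrosine or phenylalanine. The pattern was written to match the known sites, and it occurs in the 17 classical members and Cdh5, which is 0.0824% of the protein-coding genes. The sites of 5 genes are shown because they line up over 18 codons and because the transcripts of 2 of them, Cdh8 and Cdh7, mostly leave the site out. Capitals mark the codons for leucine, tryptophan, glycine, phenylalanine and leucine.
Cdh4-201: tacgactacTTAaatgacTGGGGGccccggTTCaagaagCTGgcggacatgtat
Cdh10-202: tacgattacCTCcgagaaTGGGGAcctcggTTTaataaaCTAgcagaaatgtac
Cdh11-201: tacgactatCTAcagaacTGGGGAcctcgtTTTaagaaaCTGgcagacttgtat
Cdh8-203: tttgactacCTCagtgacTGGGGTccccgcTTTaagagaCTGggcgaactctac
Cdh7-202: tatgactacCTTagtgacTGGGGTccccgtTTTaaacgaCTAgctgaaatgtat
They lie in the last coding exon on mm10, at chr2:179895844-179895897 (plus) in Cdh4, chr15:19013599-19013652 (plus) in Cdh10 and chr8:102634347-102634400 (minus) in Cdh11. In Cdh8 the site is at chr8:99030595-99030648 (minus), and in Cdh7 at chr1:110138272-110138325 (plus).

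In 13 of the 15 detected classical cadherins, transcripts with the catenin site held most of the gene's TPM in both libraries. All of the TPM of Cdh9, Cdh20 and Cdh24 lay in such transcripts, and 93.6% in replicate 1 and 90.6% in replicate 2 for Cdh2. For Cdh10 the share was 84.6% in replicate 1 and 80.0% in replicate 2, and for Cdh11 67.2% in replicate 1 and 62.6% in replicate 2. Cdh8 and Cdh7 stood apart. In Cdh8 the share was 26.2% in replicate 1 and 25.8% in replicate 2, and in Cdh7 22.9% in replicate 1 and 24.4% in replicate 2. The FASTQ-based table gave Cdh8 29.3% in replicate 1 and 27.2% in replicate 2, and Cdh7 27.4% in replicate 1 and 32.6% in replicate 2. By expected counts the share for Cdh8 was 35.1% in replicate 1 and 34.5% in replicate 2. For Cdh7 it was 30.4% in replicate 1 and 28.2% in replicate 2. By the same measure Cdh10 had 84.3% in replicate 1 and 80.4% in replicate 2. Cdh11 had 88.3% in replicate 1 and 85.8% in replicate 2, above its share of TPM.

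**Figure D2:**
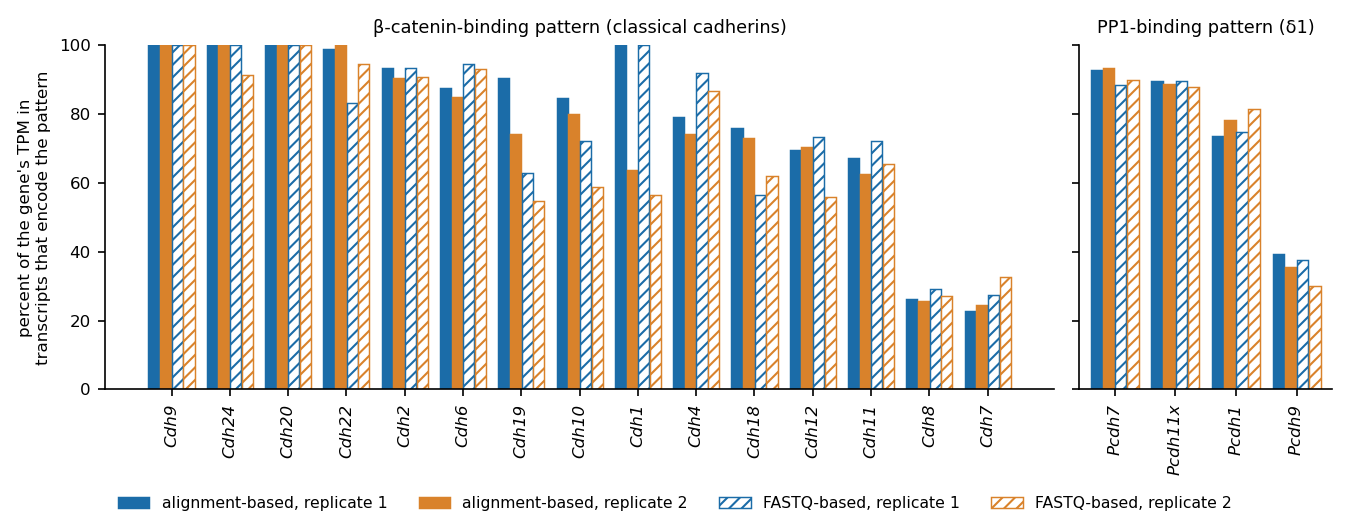
Percent of each gene's TPM in transcripts that encode the β-catenin pattern (left, 15 detected classical cadherins) or the protein phosphatase 1 (PP1) pattern (right, 4 δ1 protocadherins), for the alignment-based table (filled bars) and the FASTQ-based table (hatched bars), with replicate 1 left of replicate 2 in each. Cdh8, Cdh7 and Pcdh9 are under 40% in all 4 bars, and every other gene is over 50%.

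Most of the remaining Cdh8 RNA was in 3 transcripts that keep the membrane span and have another tail. Cdh8-204, the leading transcript, held 35.5% of the TPM in replicate 1 and 32.3% in replicate 2, and Cdh8-203, the form with the site, was second. Cdh8-201 held 18.0% in replicate 1 and 21.8% in replicate 2, and Cdh8-207 held 14.5% in replicate 1 and 11.6% in replicate 2. Together the 3 coding transcripts with a span and no site made up 68.0% of the TPM in replicate 1 and 65.7% in replicate 2, and by expected counts they were 60.7% in replicate 1 and 59.6% in replicate 2. Cdh8-204 shares its first 696 of 711 codons with Cdh8-203, Cdh8-201 its first 696 of 716, and Cdh8-207 its first 708 of 754. The coding bases at the point where they part are shown from 5 shared codons onward, with the codons after that point in capitals, to the end of the coding sequence for Cdh8-204 and Cdh8-201.
Cdh8-203: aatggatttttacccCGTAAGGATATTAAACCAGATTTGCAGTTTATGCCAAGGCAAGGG
Cdh8-204: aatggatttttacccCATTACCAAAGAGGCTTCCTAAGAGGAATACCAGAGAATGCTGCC
Cdh8-201: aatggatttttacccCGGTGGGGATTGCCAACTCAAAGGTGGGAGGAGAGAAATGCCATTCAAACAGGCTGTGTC
All are on the minus strand of mm10. The first is chr8:99030832-99030891 within exon 12, the second runs from exon 12 to exon 13 within chr8:99024914-99030891, and the third from exon 12 to exon 13 within chr8:99029853-99030891. The site of Cdh8-203 begins at codon 776, after all of these ends.

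In Cdh7 the transcripts without the site were of another kind. Cdh7-204, annotated for nonsense-mediated decay, led with 33.9% of the TPM in replicate 1 and 44.3% in replicate 2, and opens a frame of 73 codons. Cdh7-208 and Cdh7-206 are annotated as protein-coding with 76 codons, of which 70 are shared with the full protein. Cdh7-208 held 15.5% in replicate 1 and 19.4% in replicate 2, and Cdh7-206 held 7.90% in replicate 1 and 9.26% in replicate 2. The full form Cdh7-202, of 785 codons, held 21.2% in replicate 1 and 24.4% in replicate 2. Cdh7-207, whose coding end is incomplete, held 13.3% in replicate 1, from 18.1 expected counts, and none in replicate 2. The FASTQ-based table changed these shares. It gave Cdh7-204 27.99% in replicate 1 and 21.1% in replicate 2, and Cdh7-207 10.1% in replicate 1 and 18.8% in replicate 2. Cdh7-209, also of 785 codons, had no alignment-based TPM. By FASTQ-based TPM it held 7.23% in replicate 1 and 16.4% in replicate 2. Transcripts with the site were just below Cdh7-204 in replicate 1, at 27.4%, and above it in replicate 2, at 32.6%. The 5 short frames that begin like the full protein have 67 to 76 codons. They end before the membrane span of Cdh7-202, which begins at codon 610. They were too short for the search for a span, which left out the first 60 codons.

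In Cdh10 the choice of transcript changed with the quantification and the protein did not. Cdh10-202 led in the alignment-based table with 64.1% in replicate 1 and 58.6% in replicate 2, and Cdh10-201 led in the FASTQ-based table with 69.0% in replicate 1 and 58.3% in replicate 2. Both have the same coding sequence of 788 codons. Cdh11-201, of 796 codons, led Cdh11 with 67.2% in replicate 1 and 62.6% in replicate 2, and retained-intron transcripts held the remainder.

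Among the other cadherins, Cdh13 was alone in being abundant. Cdh13, or T-cadherin, which is held on the membrane by a lipid anchor without a cytoplasmic tail, had 37.6 TPM in replicate 1 and 37.9 TPM in replicate 2. Cdh13-201, of 714 codons, held 84.4% of it in replicate 1 and 78.2% in replicate 2. Cdh23, the partner of Pcdh15 in the tip link, was just above the threshold, with 1.07 TPM in replicate 1 and 1.36 TPM in replicate 2. Its expected counts went the other way, with 127 in replicate 1 and 80 in replicate 2. The 438-base noncoding Cdh23-206 held 46.7% of the gene's TPM in replicate 1 and 45.3% in replicate 2, and with protein-coding transcripts only Cdh23 had 0.55 TPM in replicate 1 and 0.31 TPM in replicate 2. Its FASTQ-based lead was Cdh23-206 in replicate 1 and Cdh23-216 in replicate 2. Cdh26, Cdh17 and Cdh16, known from gut epithelium and kidney, were not detected. Cdh26 had 2 counts in replicate 1 and 4 in replicate 2, Cdh17 had 2 in replicate 1 and 0 in replicate 2, and Cdh16 had 0 in each. Where nothing was counted, up to 3 reads remain possible, or 0.0962 CPM (counts scaled to a common library total) in replicate 1 and 0.111 CPM in replicate 2.

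Of the 28 detected genes, 27 had the same leading transcript in both libraries, and 22 had it in all 4 tables, which are 2 libraries by 2 quantifications. It held at least 50% of the TPM in both libraries in 21 genes. Protein-coding transcripts held a median of 89.7% of the TPM, and by expected counts 97.8% in replicate 1 and 97.3% in replicate 2. The lead was not protein-coding in 3 genes, Cdh7, Pcdh15 and Cdh23. Retained introns made up most of the remainder in Cdh11, with 32.8% of the TPM in replicate 1 and 37.4% in replicate 2. In Cdh12 it was a 404-base processed transcript, Cdh12-202, with 30.5% in replicate 1 and 29.6% in replicate 2. By expected counts Cdh12-202 held 2.22% in replicate 1 and 2.13% in replicate 2. In Pcdh19 a 335-base decay transcript, Pcdh19-204, had 27.5% in replicate 1 and 21.9% in replicate 2, while the FASTQ-based table gave it 0 in both.

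**Figure D3:**
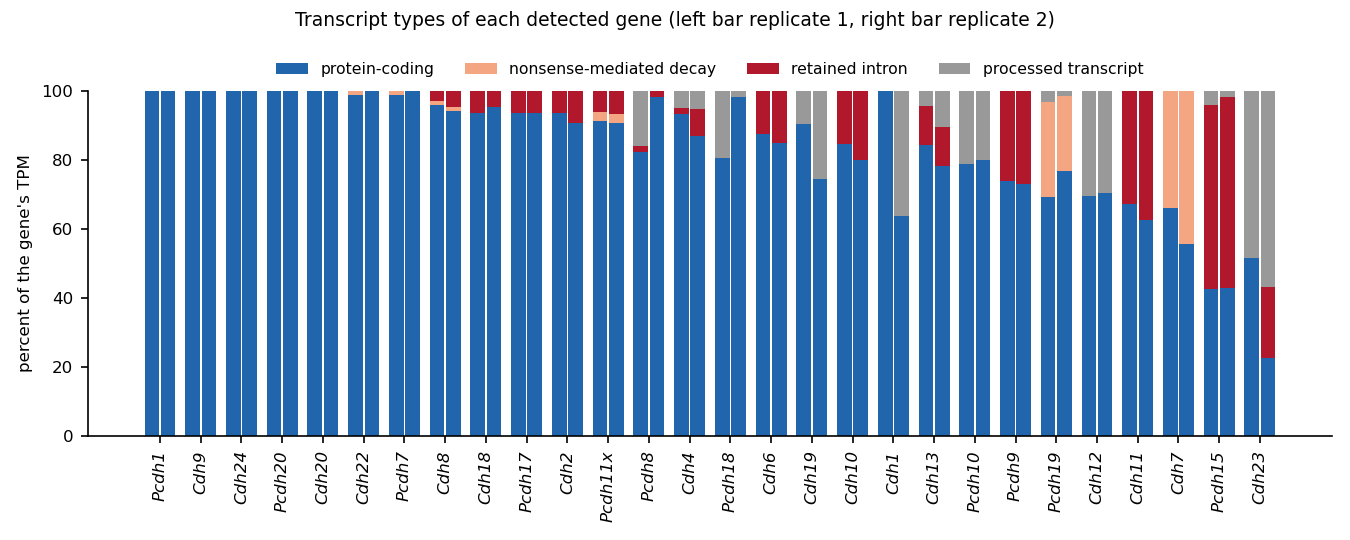
Percent of the TPM of each detected gene in transcripts annotated as protein-coding, nonsense-mediated decay, retained intron or processed transcript, with the left bar of each gene for replicate 1 and the right bar for replicate 2. Protein-coding transcripts hold at least 90% in both libraries in 12 of the 28 genes, and Pcdh15 and Cdh23, at the right end, have the lowest shares.

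The libraries were compared by ratios, which are of counts scaled by TMM, replicate 1 over replicate 2, with exact 95% intervals that cover counting error only. A difference was called at 1.5-fold or more and a mean of at least 1 CPM. No member of the 28 with enough counts was called, where 1.70% of nuclear protein-coding genes were called higher in replicate 1 and 1.46% higher in replicate 2. With a weaker limit of 25% higher, 3 members were higher in replicate 1 and 1 was higher in replicate 2, beside 5.61% of genes higher in replicate 1 and 5.67% higher in replicate 2. The intervals left out a ratio of 1 in 19 of the 28, 10 higher in replicate 1 and 9 higher in replicate 2. The same share over all genes was not computed, so this count cannot be read as a trait of the family. Over 31 members the chi-square between libraries was 13.2 times its degrees of freedom, beside 7.84 over all genes tested. That measure rises with the counts per gene, which were not matched, so these values do not compare the spread. The counts of members past either limit are too few to set apart from those shares of all genes.

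**Figure D4:**
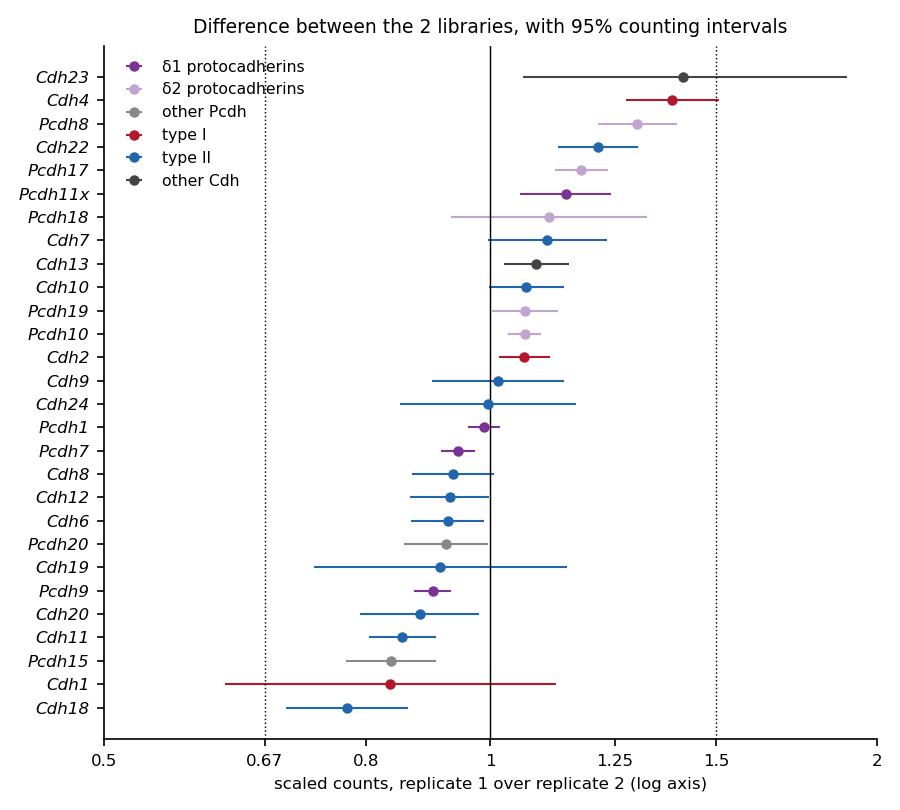
Ratio of scaled counts, replicate 1 over replicate 2, on a log axis for the 28 genes with a mean CPM of at least 1, coloured by class; bars are exact 95% intervals of counting error, and dotted lines mark 1.5-fold. No point passes a dotted line, and Cdh23 at the top and Cdh18 at the bottom have the most extreme ratios.

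Of these 4 members, Cdh4 had 1444 expected counts in replicate 1 and 928 in replicate 2, a ratio of 1.39 (1.28 to 1.51). Pcdh8 had 1909 in replicate 1 and 1306 in replicate 2, a ratio of 1.30 (1.21 to 1.40). Cdh23 had 127 in replicate 1 and 80 in replicate 2, a ratio of 1.41 (1.06 to 1.89), although its TPM was lower in replicate 1. Cdh18 had 619 in replicate 1 and 713 in replicate 2, a ratio of 0.77 (0.69 to 0.86). By counts, Cdh4, Pcdh8 and Cdh23 were higher in the library with the higher striatal neuron, choroid plexus and activity-regulated genes, and Cdh18 was higher in the library with the higher oligodendrocyte genes. Other lists differed between the libraries too. By scaled counts, all 7 inhibitory neuron markers were higher in replicate 1. Higher in replicate 2 were 5 of 6 excitatory neuron, 5 of 6 endothelial and 4 of 5 mural markers. The 8 activity-regulated genes, led by Egr1 and Arc, summed to 330.0 TPM in replicate 1 and 177 TPM in replicate 2, all 8 higher in replicate 1. The part of these lists in the ratios was not tested. Other members higher in replicate 2 beyond counting error included Pcdh15, at 0.84 (0.77 to 0.91), and Cdh11, at 0.85 (0.80 to 0.91). Cdh22, at 1.21 (1.13 to 1.30), and Pcdh17, at 1.18 (1.12 to 1.23), were higher in replicate 1.

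The partners of these proteins were expressed beside them. Of 11 catenins and related genes, 10 were detected, led by β-catenin itself: Ctnnb1 had 257 TPM in replicate 1 and 252 TPM in replicate 2. Pkp4, a relative of δ-catenin, had 87.0 TPM in replicate 1 and 99.9 TPM in replicate 2. Ctnnd2, the neural δ-catenin, had 109 TPM in replicate 1 and 126 TPM in replicate 2, and Ctnna2, the neural α-catenin, had 53.3 TPM in replicate 1 and 58.2 TPM in replicate 2. All 9 genes of the WAVE complex were detected, led by Cyfip2 with 223 TPM in replicate 1 and 243 TPM in replicate 2 and Nckap1 with 181 TPM in replicate 1 and 180.4 TPM in replicate 2. All 8 genes of cadherin processing were detected, among them the γ-secretase subunit Psenen, with 39.3 TPM in replicate 1 and 33.8 TPM in replicate 2, and the sheddase Adam10, with 31.2 TPM in replicate 1 and 30.7 TPM in replicate 2. Of 23 other genes of the cadherin superfamily, Cdh5 among them, 13 were detected, and the calsyntenin Clstn1, with 597 TPM in replicate 1 and 665 TPM in replicate 2, was above every one of the 34 genes. Clstn3, another calsyntenin, had 168 TPM in replicate 1 and 167 TPM in replicate 2. Of 7 further genes of the hair cell tip link machinery 3 were detected, led by Cib2 with 9.01 TPM in replicate 1 and 8.45 TPM in replicate 2 and the myosin gene Myo7a with 4.81 TPM in replicate 1 and 4.47 TPM in replicate 2.

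Many members are long genes. Their median span on the genome was 126 kb, against 17.3 kb over nuclear protein-coding genes, and 19 of the 34 spanned at least 100 kb, as did 11.3% of nuclear protein-coding genes. Abundant members included long and short genes. Pcdh9 spans 877 kb (chr14:93013410-93890679, minus strand), and the shortest member, Pcdh8, spans 4.54 kb. Of the 12 type II genes, 8 lie on chromosomes 15 and 1. Chromosome 15 holds Cdh6, Cdh9, Cdh10, Cdh12 and Cdh18, all detected, between 8.92 and 29.2 TPM. On chromosome 1, Cdh20, Cdh7 and Cdh19 ranged from 2.58 to 9.63 TPM. Neighbours could differ: Pcdh12 lies 55.0 kb from Pcdh1 on the same strand and was not detected, and Cdh3, not detected, lies 46.1 kb from Cdh1. In 7 members an exon overlaps an exon of another gene. On the same strand this was Gm49685 with Cdh12, at 8.68 TPM in replicate 1 and 13.3 TPM in replicate 2, so reads there may have been divided between them. The other 6 overlaps were with genes of the opposite strand, of which 4932441J04Rik, beside Pcdh7, was the highest, at 2.98 TPM in replicate 1 and 3.45 TPM in replicate 2. Whether reads were counted by strand is not given in the sources used here.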

How the data were processed

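Each library has a deposited gene table, an alignment-based transcript table and a FASTQ-based transcript table, on mm10 with GENCODE annotation M21, as a text deposited beside them states. The authors' deposited gene table gives expected counts, which need not be whole, and TPM. The deposited transcript tables give estimated counts and TPM, and the alignment-based one a percent of the gene's TPM per transcript, recomputed here from TPM. No source used here names the aligner or the quantifiers. mm10 is a C57BL/6 genome, and reads of the CAST alleles may align less well; this was not tested. Of 81881 entries per gene table, 55536 are annotated genes; the others, spike-ins included, took 0.350% of expected counts in replicate 1 and 0.378% in replicate 2 and were left out. Expected counts were rounded to whole numbers and scaled with TMM factors of 0.987 in replicate 1 and 1.01 in replicate 2 (edgeR 4.0.16, R 4.3.3); DESeq2 1.42.0 size factors were an alternative. The ratio rule was tested on simulated data. Coding sequences were read from the GENCODE M21 transcripts (Python 3.11.15, Biopython 1.88, scipy 1.17.1). Every member is named, with values where detected, and leading transcripts are named for the 2 most abundant members of each class and where the lead differs; every other transcript named, the activity-regulated list and the sequence patterns were chosen after values were seen. Members and lists were chosen with earlier results of these data known. Intervals and floors cover counting error only, and no molecular identifiers are named in the sources used here.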

Additional observations from a re-analysis of the deposited data

Results flagged for a closer look

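Cdh17, a cadherin of gut epithelium, had an alignment-based count of 0 in replicate 2, and the FASTQ-based table gave it an estimated count of 19.2 there. It was flagged because that estimate is above 3 counts. The floor of 3 counts covers the sampling of reads only and cannot judge a difference between quantifications of the same library. In replicate 1 the estimated count was 9 and the alignment-based count 2. The cause was not tested.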

How the results depend on the processing

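No paired analysis was possible because the samples form 1 group. The number of detected members was 26 to 28 under every alternative tried, with 27 when only protein-coding transcripts were counted (chosen after seeing the data); leaving out either library gave 28 to 28. Class medians of log2(TPM + 1) moved with the scale: for δ1, δ2, other protocadherins, type I, type II and other cadherins they were 7.10, 4.64, 4.64, 1.70, 4.41 and 0.60 with FASTQ-based TPM. With CPM and no length correction they were 8.02, 6.27, 5.43, 2.08, 5.18 and 0.14, and with TPM rescaled over nuclear protein-coding genes 7.55, 5.24, 5.18, 2.02, 4.97 and 0.50. A pseudocount of 0.1 gave 0.57 for type I and -1.79 for other cadherins, and detected members alone gave 3.71 and 3.21. Without a replicate the medians ranged from 6.31 to 6.55 (δ1), 4.09 to 4.23 (δ2), 3.99 to 4.19 (other protocadherins), 1.01 to 1.53 (type I), 3.73 to 4.05 (type II) and 0.24 to 0.26 (other cadherins). δ1 stayed highest in each. Counts of members past the fold between libraries went above 0 in 3 settings: FASTQ-based counts gave 1 higher in replicate 1 (Cdh23), a mean CPM of at least 0.1 gave 1 higher in replicate 2 (Cdh26, with 2 counts in replicate 1 and 4 in replicate 2), and a limit of 25% higher gave 3 in replicate 1 and 1 in replicate 2. The reported leading transcript held in 24 of 28 members with the FASTQ-based table and in 27 to 28 without a replicate, and its median share was 63.2% to 66.2%. FASTQ-based TPM were higher over the genome, by a median of 1.54-fold for detected protein-coding genes and 1.45-fold for members, so levels are compared within a table only. The share of Cdh10-202 was 61.3% as reported and 1.83% in the FASTQ-based table.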
